A study of Mus musculus with 8 samples.

Results

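The genes described here encode the machinery that brings secretory and membrane proteins into the endoplasmic reticulum (ER), cuts off their signal peptides and attaches N-linked glycans. They were chosen by symbol from a list of 34 genes, and each of the 34 matched 1 row among the 45706 genes of the count table. All 34 passed the filter on low counts and were tested together with 16966 other genes. By role they comprise 6 protein subunits of the signal recognition particle (SRP), 2 subunits of its receptor, 8 genes of the Sec61 channel and its partners, 4 genes of the SSR complex, 5 of signal peptidase and 9 of oligosaccharyltransferase (OST).

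The data are RNA sequencing counts from translating ribosome affinity purification, in which anti-GFP antibodies pull down tagged ribosomes of 1 cell type. The 8 libraries comprise 4 immunoprecipitates (IP), holding RNA bound to the tagged ribosomes of AgRP neurons, and 4 inputs, holding RNA of the dissected hypothalamic block that holds the arcuate nucleus. All 8 share the genotype Mff fl/fl, AgRP-IRES-Cre tg/wt, RpL10a-GFP fl/wt, and each is a pool of 3 random-fed mice, aged 11 to 12 weeks. Cre under the Agrp locus both deletes Mff, which encodes a mitochondrial fission factor, and switches on the tagged ribosomal protein, so the 2 events mark the same cells. Control-genotype libraries were not used here, and the values below compare ribosome-bound RNA with tissue RNA within the knockout and do not measure the effect of the deletion.

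Most proteins with a signal peptide are recognised by SRP while still on the ribosome, and SRP hands the ribosome to its receptor on the ER membrane. The chain then enters the Sec61 channel, signal peptidase removes the signal peptide, and OST transfers a preassembled glycan onto asparagine residues. AgRP neurons make neuropeptide precursors that follow this route into the secretory pathway.

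Libraries held between 39.9 and 74.6 M estimated counts (M, mega). Agrp averaged 843 ± 170 CPM (counts per M counts of a library, scaled by TMM factors) in IP and 3.35 ± 0.74 CPM in input (SD, n = 4), and all 10 AgRP neuron markers were higher in IP. Mff averaged 68.4 ± 3.10 CPM in IP and 124 ± 8.69 CPM in input (log2 fold change -0.86 ± 0.07), a count over the whole gene that does not show whether the deleted part was read. Markers of other cells were still present in IP, and none was at 0 in every IP library. The summed level of 9 astrocyte markers was 797 to 1095 CPM in IP and 2670 to 3319 CPM in input, and that of 9 oligodendrocyte markers was 613 to 895 CPM in IP and 2137 to 2696 CPM in input; all 18 fell. Of 8 microglia markers 6 were lower (15.9 to 18.7 CPM in IP, 51.5 to 63.5 CPM in input), of 8 vascular markers 2 (10.9 to 36.9 CPM in IP, 36.0 to 43.8 CPM in input), of 6 tanycyte and ependymal markers 5 (11.3 to 16.6 CPM in IP, 36.9 to 46.5 CPM in input) and of 11 markers of other hypothalamic neurons 9 (272 to 373 CPM in IP, 768 to 940 CPM in input). None of these markers of other cells was higher. Over all genes tested, 24.5% were higher and 20.9% lower, and the vascular markers that fell, 2 of 8, were near the latter share. The part of the remaining glial and vascular RNA in the results below was not tested. IP replicate 3 stood apart from the other IP libraries. The chi-square per degree of freedom against it was 222 to 329, whereas it was 47.1 to 60.2 among the other 3 IP libraries, and ribosomal and mitochondrial RNA took 13.2% of its counts, against 22.2% to 25.3% in the other IP libraries.

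Most genes of the ER entry machinery had a higher level in ribosome-bound RNA of AgRP neurons than in tissue RNA. In edgeR's quasi-likelihood test with Benjamini-Hochberg adjustment over 17000 genes, 27 of 34 members were higher, against 24.5% of all genes tested, and 2 were lower, against 20.9%. The 29 genes called in either direction compare with 45.4% of all genes, and 5 members did not pass the threshold of 0.05. With a change of at least 2-fold required, 15 members were higher, against 8.37% of all genes. The median log2 fold change of the 34 members was 0.82, a 1.76-fold difference, whereas that of all tested genes was -0.012. With upper quartile factors the 2 medians were 0.68 and -0.15, and 25 members were higher. Among all genes 4171 were higher and 3545 lower, or 3342 and 4384 with upper quartile factors. Every IP library lay above every input library for 26 members, against 24.1% of all genes, and every IP library lay below for 2, against 24.0%, and 6 overlapped.

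**Figure D1:**
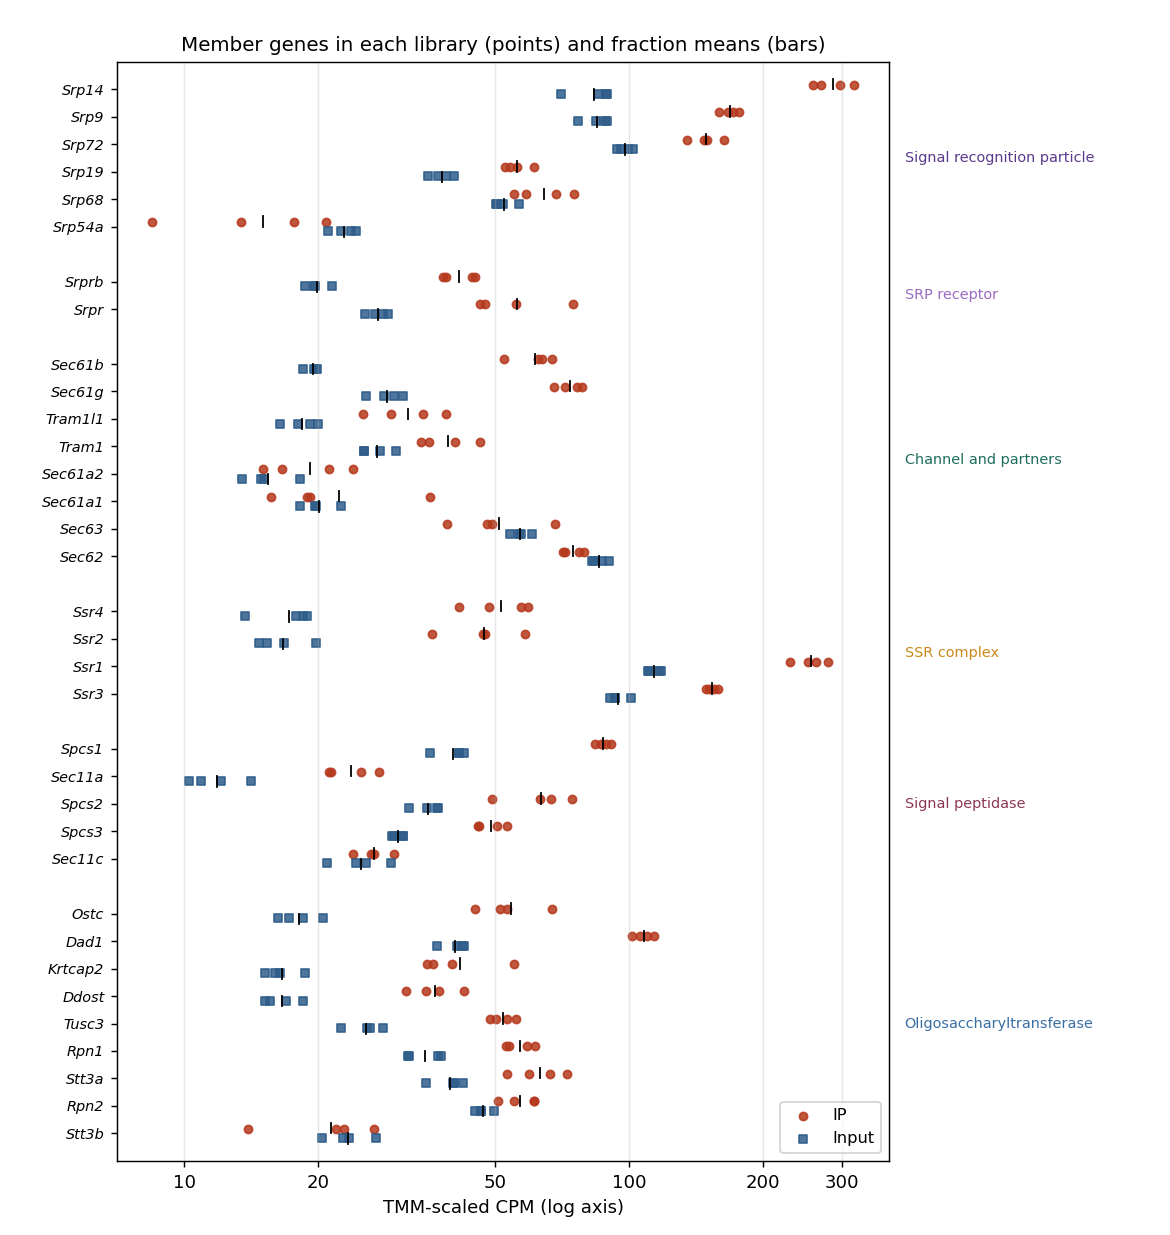
Level of each of the 34 genes in every library, in TMM-scaled CPM on a log axis, with IP libraries as circles above and input libraries as squares below, and short bars at the fraction means (n = 4 each). The 2 fractions separate for most genes, from 259 to 320 CPM in IP and 70.2 to 89.1 CPM in input for Srp14, and overlap for Srp68, Sec61a1, Sec61a2, Sec63, Sec11c and Stt3b.

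Together the 34 genes took 0.248%, 0.253%, 0.252% and 0.263% of the counts of IP replicates 1 to 4, and 0.129%, 0.127%, 0.130% and 0.132% of the counts of input replicates 1 to 4. The share was higher in each IP library than in each input library. These libraries cannot tell apart the sources of a difference in share, such as more cells of a type in a fraction or more of the RNA per cell. The fractions also differ in kind, ribosome-bound RNA against tissue RNA. Ribosomal and mitochondrial RNA took 13.2% to 25.3% of the counts of IP libraries and 37.3% to 41.9% of those of input libraries. Without ribosomal and mitochondrial RNA in the denominator the shares were 0.323% ± 0.025 in IP and 0.217% ± 0.010 in input (SD, n = 4).

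Several of these genes are known targets of the ER stress factors ATF6 and XBP1, so promoter sequences were searched for the letters these factors recognise. RefSeq windows of 300 bases, from 250 before to 50 after a start site (GRCm38.p6), were found for 25 of the 34 genes, 27 windows in all. The full ER stress element, which is CCAAT followed after 9 free bases by CCACG and was searched on both strands, was in 0 of the 27 windows and in 0.119% of 32851 mouse windows. The second type, ATTGG and CCACG with 1 free base between them, was in 1 window, of Krtcap2, and in 0.0365% of all. This match began at base 18 of the 50 after the start site. Another window of Krtcap2 overlaps this one and ends before the match. TGACGTG, the core of the XBP1 element, was in 1 window, that of Srpr (3.70% of the members' windows), and in 2.01% of all. The shorter parts CCAAT and CCACG, which both longer ER stress elements contain, were in 51.9% and 63.0% of the members' windows, against 37.4% and 32.8% of all. The windows with CCACG were 17, of 16 genes, since 1 site of Krtcap2 lies in 2 overlapping windows. Of the 25 genes with a window 20 were called higher, against 24.5% of all genes tested, among them both genes with the rarer matches. An annotated exon covered 250 of the 250 bases before the start site for Krtcap2 and 103 for Srpr. Whether the matches bear on the levels was not tested. The 30 bases around the 2 rarer matches are shown with the matching letters in capitals (Krtcap2 at chr3:89246481-89246510 and Srpr at chr9:35211179-35211208, both on the plus strand).
Krtcap2: gggacacggATTGGACCACGgacggggcgt
Srpr: ggctgctggtgTGACGTGtcccgcgcttgg

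The 250 bases before the start site are shown for 2 OST genes, Rpn1, which rose, and Stt3b, which did not pass, both without an annotated exon in the window. The capitals mark CCAAT and CCACG on either strand (Rpn1 at chr6:88084223-88084472, plus strand, and Stt3b at chr9:115310469-115310718, minus strand).
Rpn1: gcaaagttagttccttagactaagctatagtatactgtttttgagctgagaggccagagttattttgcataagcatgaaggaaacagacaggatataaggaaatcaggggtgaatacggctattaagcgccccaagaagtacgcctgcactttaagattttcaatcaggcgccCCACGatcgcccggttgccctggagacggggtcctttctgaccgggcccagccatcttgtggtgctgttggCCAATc
Stt3b: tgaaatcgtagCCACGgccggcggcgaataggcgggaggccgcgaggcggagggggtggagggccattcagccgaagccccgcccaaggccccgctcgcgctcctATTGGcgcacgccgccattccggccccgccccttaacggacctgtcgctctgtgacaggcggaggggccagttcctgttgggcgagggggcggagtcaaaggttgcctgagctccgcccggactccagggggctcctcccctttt
Each of these windows holds 1 match to CCAAT and 1 to CCACG.

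Within SRP, the subunits did not move alike. Srp14, which with Srp9 forms the Alu domain that slows elongation during targeting, had the largest log2 fold change of the 34 genes (chr2:118475850-118479711, minus strand, GRCm38, as are the positions below). Its level was 297, 270, 259 and 320 CPM in IP replicates 1 to 4, against 84.9, 70.2, 89.1 and 88.6 CPM in input replicates 1 to 4. No IP library came near the input range, and the log2 fold change was 1.78 ± 0.10 (SE, n = 4 per fraction, adjusted p = 1.03e-07 in edgeR). Its partner Srp9 averaged 168 ± 7.47 CPM in IP and 84.5 ± 5.51 CPM in input (log2 fold change 0.99 ± 0.07). The log2 ratio of Srp9 to Srp14 within a library was -0.76 ± 0.09 in IP and 0.026 ± 0.19 in input (SD, n = 4), a difference of -0.79 with an exact permutation p of 0.0286. The longest coding transcripts are 1367 bases for Srp9 and 798 for Srp14.

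Srp72 and Srp68 encode a second dimer of the particle. Srp72 averaged 149 ± 11.5 CPM in IP and 97.6 ± 3.49 CPM in input, a log2 fold change of 0.61 ± 0.07. Srp68 stood at 75.1, 55.0, 58.7 and 68.4 CPM in IP, against 52.1, 56.5, 50.1 and 50.4 CPM in input, so that IP replicate 2 lay within the input range. Its log2 fold change of 0.30 ± 0.10 passed the threshold (adjusted p = 0.0355 in edgeR), but not without IP replicate 1 (0.22) or 4 (0.27) or input replicate 1 (0.31), 3 (0.29) or 4 (0.29), with RLE factors (0.27), with upper quartile factors (0.16) or with offsets and the replicate block (0.28). The Srp68 to Srp72 ratio was lower in IP by 0.32 on the log2 scale (-1.21 ± 0.16 in IP and -0.89 ± 0.037 in input, SD, n = 4, exact permutation p = 0.0286). Their longest coding transcripts have 2526 and 3625 bases. Srp19, which helps assemble the particle on its RNA, was higher by 0.56 ± 0.08 and stood at 0.15 with offsets for GC content and transcript length, where it was not called (adjusted p = 0.146).

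Srp54a encodes the GTPase that binds the signal sequence, and it was 1 of the 2 members called lower. Its level was 20.8, 13.4, 8.47 and 17.6 CPM in IP replicates 1 to 4 and 23.8, 24.3, 21.0 and 22.5 CPM in input replicates 1 to 4. The IP values spread over a wide range, with the lowest in replicate 3, and all lay below the inputs. The log2 fold change was -0.61 ± 0.23 (adjusted p = 0.0482 in edgeR). This call did not hold without IP replicate 2 (-0.55) or 4 (-0.69) or any 1 input replicate (-0.63 to -0.57), with library totals alone (-0.51), without ribosomal and mitochondrial RNA (-0.60), or with GC and length offsets (-0.44, or -0.52 with the replicate block as well). The value was -0.41 without IP replicate 3. Srp54a shares 3640 bases at 99.5% identity with the gene listed in the table as Srp54b, which averaged 83.7 ± 11.7 CPM in IP and 95.1 ± 3.97 CPM in input, so the division of reads between them is uncertain. With the counts of both genes summed, a setting chosen after seeing the data, the log2 fold change was -0.26 (adjusted p = 0.0125 in edgeR). A further coding copy of Srp54a, with 3644 bases at 99.56% identity, was not among the genes counted, and where its reads went is unknown. Of the SRP RNA genes, named here after their values were seen, Rn7s1 stood at 13.3, 0, 0 and 8.67 CPM in IP and at 69.6, 77.9, 78.3 and 47.5 CPM in input. Rn7s2, a second copy, stood at 6.49, 16.5, 36.4 and 11.3 CPM in IP and at 13.3, 9.22, 10.4 and 23.6 CPM in input, with overlapping fractions, and the split of reads between these copies is uncertain as well.

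Both receptor subunits rose. Srpr, the GTPase subunit that docks SRP, stood at 47.4, 55.7, 46.2 and 74.6 CPM in IP, against 26.8, 25.5, 28.0 and 28.7 CPM in input (log2 fold change 1.04 ± 0.14). Srprb, its membrane anchor, averaged 41.5 ± 3.56 CPM in IP and 19.9 ± 1.17 CPM in input (1.06 ± 0.10). No input library reached an IP library for either gene. The Srprb to Srpr ratio differed by 0.041 ± 0.18 (SE) on the log2 scale between fractions (exact permutation p = 0.857, n = 4 per fraction), an error that leaves room for a difference in either direction.

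The channel genes split by subunit. Sec61b and Sec61g, the small tail-anchored subunits that flank the pore, were both higher in IP. Sec61b (chr4:47474658-47483242, plus strand) stood at 62.4, 63.7, 52.3 and 67.0 CPM in IP, against 19.6, 18.5, 19.8 and 19.8 CPM in input (log2 fold change 1.66 ± 0.10, adjusted p = 1.65e-07 in edgeR). Sec61g averaged 73.6 ± 4.69 CPM in IP and 28.6 ± 2.31 CPM in input (1.36 ± 0.09). For both genes the lowest IP library exceeded the highest input library by a wide margin. A transcribed copy of Sec61g on another chromosome, Gm10177, shares 420 identical bases and was counted at 4.77 CPM in IP and 1.55 CPM in input.

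The pore-forming subunit is encoded by either Sec61a1 or its paralog Sec61a2, and neither passed the threshold. Sec61a1 (chr6:88503579-88518905, minus strand) stood at 35.6, 15.7, 18.9 and 19.1 CPM in IP and at 19.8, 18.2, 19.6 and 22.6 CPM in input. IP replicate 1 was high, whereas the other 3 IP libraries lay within or below the input range. The log2 fold change was 0.16 ± 0.22 (adjusted p = 0.606 in edgeR), and it was -0.16 without IP replicate 1. Sec61a2 had 16.5, 24.0, 21.1 and 15.0 CPM in IP and 18.2, 13.5, 14.9 and 15.1 CPM in input, with overlapping fractions (0.31 ± 0.17, adjusted p = 0.151). Sec61a2 was called higher with GC and length offsets (0.45, adjusted p = 0.0468 in edgeR), but not with the replicate block as well (0.43, adjusted p = 0.0774). Its longest transcript shares 909 bases with the overlapping gene Nudt5.

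Within a library, the log2 ratio of Sec61b to Sec61a1 was 0.80, 1.99, 1.45 and 1.78 in IP replicates 1 to 4 and -0.014, 0.024, 0.010 and -0.18 in input replicates 1 to 4. The ratio was higher in each IP library, by 1.55 ± 0.26 (SE) on the log2 scale. The ratio of Sec61g to Sec61a1 was higher by 1.27 ± 0.27, also without overlap between the fractions (exact permutation p = 0.0286 for each, n = 4 per fraction). Their longest coding transcripts differ in length, with 564 bases for Sec61b, 1862 for Sec61g and 3172 for Sec61a1. With GC and length offsets the log2 fold changes were 1.00 for Sec61b, 1.35 for Sec61g and 0.14 for Sec61a1.

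Sec62 and Sec63 assist the channel with chains that arrive after translation, and Sec63 recruits the chaperone BiP to it. Sec62 stood at 79.1, 70.9, 71.8 and 77.3 CPM in IP and at 86.9, 83.3, 82.5 and 89.9 CPM in input. The IP values lay just below the inputs, with a log2 fold change of -0.20 ± 0.07 (adjusted p = 0.0374 in edgeR). This call did not hold without IP replicate 2 (-0.17) or 3 (-0.17) or any 1 input replicate (-0.20 to -0.16), with library totals alone (-0.096), with no filter on low counts (-0.21), or with GC and length offsets (-0.055, or -0.056 with the replicate block as well). Sec63 had 48.0, 38.8, 68.0 and 49.0 CPM in IP and 53.8, 56.4, 60.5 and 57.0 CPM in input. IP replicate 3 was the high one, and the log2 fold change of -0.16 ± 0.14 (adjusted p = 0.394) became -0.33 (adjusted p = 0.0154) without it. The Sec62 to Sec63 ratio differed by -0.0085 ± 0.18 (SE, exact permutation p = 0.971, n = 4 per fraction).

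Tram1 and its intronless paralog Tram1l1 encode membrane proteins beside the channel. Tram1 averaged 39.1 ± 5.49 CPM in IP and 27.0 ± 2.20 CPM in input (log2 fold change 0.53 ± 0.12). Tram1l1 averaged 31.9 ± 5.96 CPM in IP and 18.4 ± 1.54 CPM in input (0.79 ± 0.14). For both genes each IP library exceeded each input library, and the difference of their ratio, -0.25 ± 0.15 (SE), did not pass the test (exact permutation p = 0.143, n = 4 per fraction). In all, 4 of the 8 channel genes were higher, 1 was lower and 3 did not pass, with a median log2 fold change of 0.42.

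**Figure D2:**
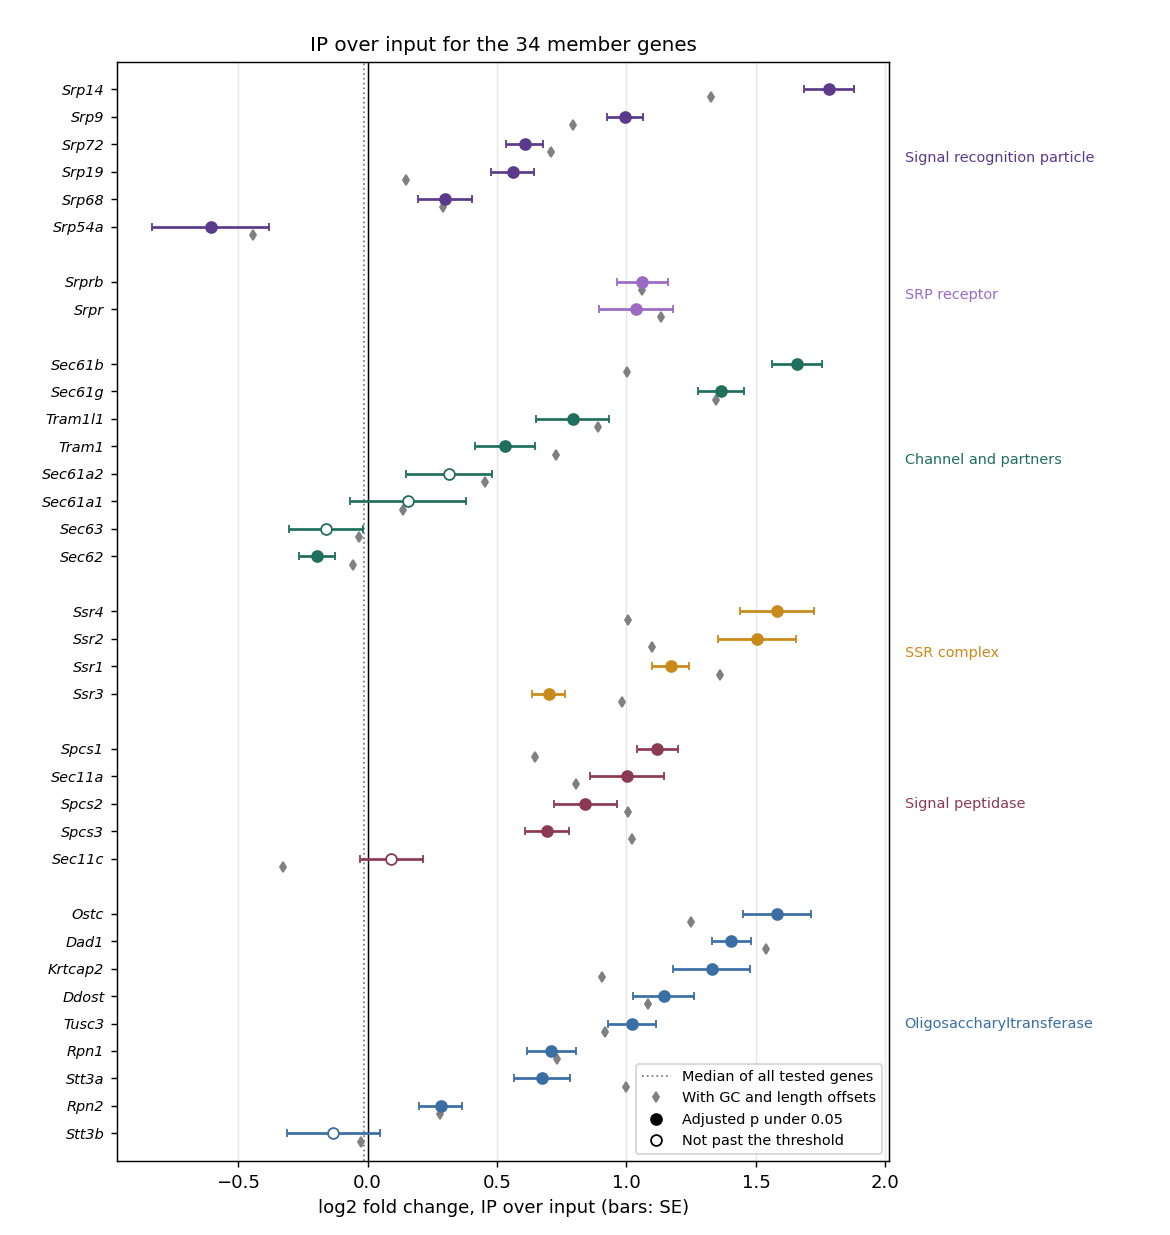
Log2 fold change of IP over input for the 34 genes by role, with standard errors from edgeR; filled circles passed an adjusted p of 0.05, open circles did not, and grey diamonds are the same gene fitted with GC and length offsets. The receptor and SSR genes lie between 0.70 and 1.58, whereas Srp54a, Sec62, Sec63 and Stt3b lie below 0.

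All 4 genes of the SSR complex, which sits beside the channel and helps some signal peptides to insert, were higher in IP, with a median log2 fold change of 1.34. The complex is also called the translocon-associated protein complex and is unrelated to the purification method. Ssr1 stood at 229, 252, 280 and 263 CPM in IP, against 117, 110, 110 and 118 CPM in input (1.17 ± 0.07, adjusted p = 2.66e-07 in edgeR). Ssr3 averaged 153 ± 4.02 CPM in IP and 94.4 ± 4.59 CPM in input (0.70 ± 0.06). Both were higher in every IP library. The longest transcript of Ssr1, at 9333 bases, is the longest of the 34. Ssr4 (1.58 ± 0.14) and Ssr2 (1.50 ± 0.15) rose as well, with 51.5 ± 8.18 and 47.2 ± 9.04 CPM in IP and 17.2 ± 2.36 and 16.6 ± 2.24 CPM in input.

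Signal peptidase has 2 alternative catalytic subunits, Sec11a and Sec11c, which associate with the accessory subunits Spcs1, Spcs2 and Spcs3. Sec11a (chr7:80904889-80947780, minus strand) stood at 25.0, 21.4, 21.1 and 27.4 CPM in IP, against 12.1, 10.2, 10.9 and 14.2 CPM in input. The IP values were all above the inputs, with a log2 fold change of 1.00 ± 0.14 (adjusted p = 0.000160 in edgeR). Sec11c had 23.9, 26.2, 26.6 and 29.7 CPM in IP and 24.4, 20.9, 25.6 and 29.1 CPM in input. These fractions overlapped (0.09 ± 0.12, adjusted p = 0.570), and the sign turned with upper quartile factors (-0.043) and with GC and length offsets, where Sec11c was called lower (-0.33, adjusted p = 0.0294).

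The log2 ratio of Sec11c to Sec11a was -0.060, 0.29, 0.33 and 0.11 in IP replicates 1 to 4, and 0.98, 0.99, 1.19 and 1.01 in input replicates 1 to 4. Sec11c was thus counted 1.12 times as often as Sec11a in IP and 2.06 times as often in input, a difference of -0.88 ± 0.10 (SE, exact permutation p = 0.0286, n = 4 per fraction). Their coding sequences have 576 and 537 bases, and the longest transcript of Sec11c, 860 bases, is shorter than that of Sec11a, 1345 bases. Spcs1 (1.12 ± 0.08), Spcs2 (0.84 ± 0.12) and Spcs3 (0.69 ± 0.08) all rose without overlap between fractions. Spcs1 averaged 87.4 ± 3.12 CPM in IP and 40.3 ± 3.10 CPM in input, and its longest transcript shares 223 bases with the overlapping gene Glt8d1.

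Of 9 OST genes 8 were higher in IP and 1 did not pass, with a median log2 fold change of 1.02. Dad1, a small subunit shared by all OST complexes, stood at 102, 106, 109 and 114 CPM in IP, against 42.6, 36.9, 41.0 and 42.1 CPM in input. The 4 IP libraries lay close together, and the change of 1.40 ± 0.08 had the smallest p of the 34 genes (adjusted p = 9.72e-08 in edgeR). The other shared subunits Ddost (1.14 ± 0.12), Rpn1 (0.71 ± 0.09) and Rpn2 (0.28 ± 0.08) rose as well. Rpn2 averaged 56.9 ± 5.03 CPM in IP and 46.8 ± 1.95 CPM in input, and it was not called with upper quartile factors (0.15, adjusted p = 0.178).

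OST exists in 2 forms with different catalytic subunits. Stt3a acts on chains entering the channel and is joined to it by Ostc and Krtcap2, whereas Stt3b glycosylates sites that were skipped and works with the thiol oxidoreductases Tusc3 or Magt1. Stt3a (chr9:36729344-36767679, minus strand) stood at 53.2, 66.5, 59.6 and 72.6 CPM in IP, against 42.4, 34.9, 40.4 and 40.2 CPM in input (0.67 ± 0.11, adjusted p = 0.000362 in edgeR). Stt3b (chr9:115242581-115310421, minus strand) had 22.9, 21.9, 13.9 and 26.8 CPM in IP and 23.5, 22.7, 20.3 and 27.0 CPM in input. Stt3a was higher in every IP library, and Stt3b overlapped between fractions, with IP replicate 3 the lowest of all 8 libraries. Its log2 fold change was -0.13 ± 0.18 (adjusted p = 0.585), or 0.029 without IP replicate 3.

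Within a library, the log2 ratio of Stt3a to Stt3b was 1.20, 1.58, 2.06 and 1.42 in IP and 0.84, 0.61, 0.97 and 0.56 in input. The ratio was thus higher in each IP library, by 0.82 ± 0.21 (SE, exact permutation p = 0.0286, n = 4 per fraction), and by 0.66 without IP replicate 3. The longest coding transcripts are 5867 bases for Stt3a and 4221 for Stt3b. Among the partners of Stt3a, Ostc averaged 54.1 ± 9.34 CPM in IP and 18.1 ± 1.81 CPM in input (1.58 ± 0.13), and Krtcap2 averaged 41.6 ± 9.18 CPM in IP and 16.6 ± 1.49 CPM in input (1.33 ± 0.15). Krtcap2 shares 239 bases with the overlapping gene Trim46. Tusc3, a partner of Stt3b, was higher too, with 55.6, 48.7, 50.3 and 53.0 CPM in IP and 28.0, 22.5, 25.7 and 26.1 CPM in input (1.02 ± 0.09).

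Magt1, the alternative to Tusc3 and not 1 of the 34 genes, had 8.56, 8.77, 21.2 and 9.40 CPM in IP and 16.5, 14.8, 13.6 and 18.1 CPM in input. Only IP replicate 3 was high, and the log2 fold change was -0.39 ± 0.28 (adjusted p = 0.279), or -0.82 without that library (adjusted p = 0.000628 in edgeR). The log2 ratio of Tusc3 to Magt1 was 2.63, 2.41, 1.23 and 2.43 in IP and 0.75, 0.58, 0.89 and 0.52 in input. Tusc3 counts, not scaled by length, thus exceeded Magt1 counts 4.52-fold in IP and 1.61-fold in input, a log2 difference of 1.49 ± 0.33 (SE, exact permutation p = 0.0286, n = 4 per fraction), or 1.81 without IP replicate 3. The longest coding transcripts are 1535 bases for Tusc3 and 4531 for Magt1.

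In total 11 ratios of partners or paralogs were compared. The fractions did not overlap for 7 of them, each with the exact p of 0.0286, the smallest that 70 arrangements of the libraries allow, and with 0.0449 after Benjamini-Hochberg adjustment over the 11. The adjusted value depends on how many of the 11 reached the smallest p, and Sec61b and Sec61g were both set against Sec61a1. Complete separation was common for single genes, with 24.1% of all genes wholly above and 24.0% wholly below input, and the share over other ratios was not computed. Sec61a1 to Sec61a2 was among the other 4, with a difference of -0.20 ± 0.37 (SE, exact permutation p = 0.543, n = 4 per fraction).

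**Figure D3:**
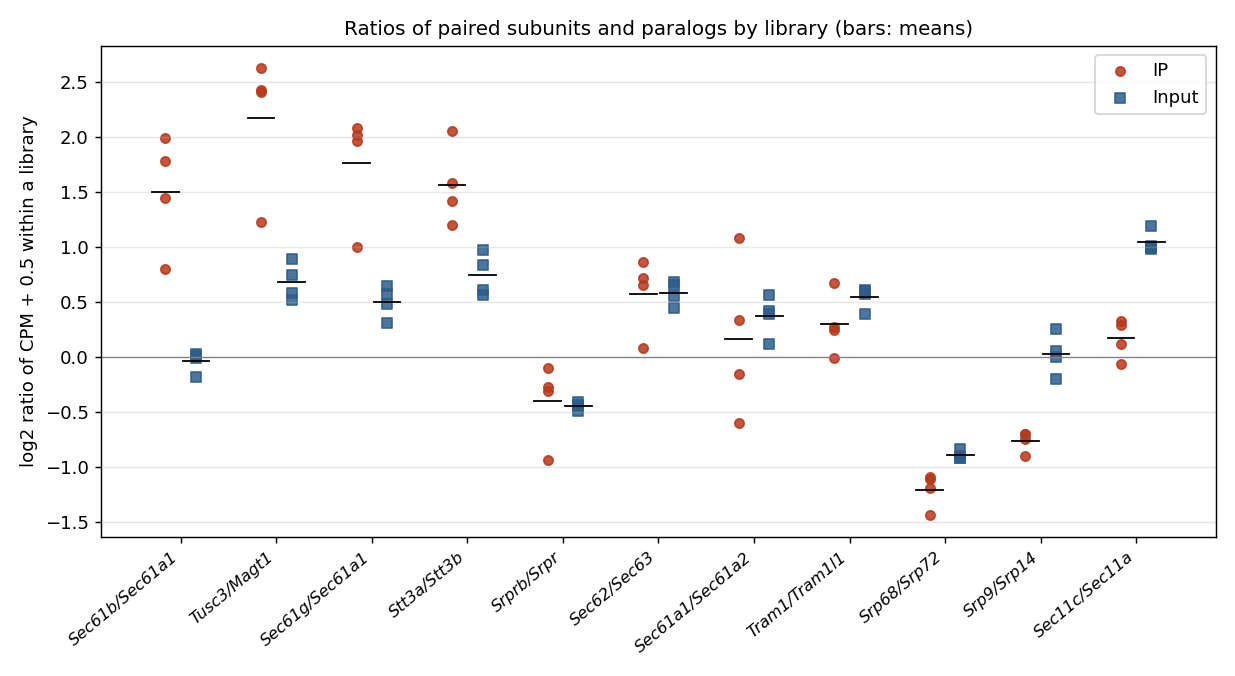
Log2 ratio of the CPM (plus 0.5) of 2 genes within each library, with IP libraries as circles on the left of each pair, input libraries as squares on the right and bars at the means (n = 4 each). Ratios such as Sec61b to Sec61a1 (mean 1.51 in IP and -0.040 in input) and Sec11c to Sec11a (0.17 in IP and 1.05 in input) separate the fractions, whereas Srprb to Srpr and Sec62 to Sec63 do not.

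Transcripts of the ER entry genes are often short, and short transcripts were higher in IP across the whole table. Among tested coding genes the median log2 fold change was 0.72 for transcripts of up to 1000 bases and -0.29 for those over 6000 bases. The 34 genes ran in the same direction. Across them the log2 fold change and the log2 transcript length had a Pearson r of -0.53 (Spearman rho -0.53), a description over genes that share the same 8 libraries and are not independent. For coding length r was -0.66, and the 15 genes with a coding sequence under 600 bases had a median of 1.33, whereas the 19 longer ones had 0.61. In the classes between 1000 and 3000 bases, each of the 16 genes lay above the median of all genes of its length class, and in the class from 3000 to 4000 bases 7 of 8 did. Of the 3 genes between 4000 and 6000 bases, Stt3a alone did, and of the 5 up to 1000 bases Srp19 and Sec11c did not.

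With offsets for GC content and transcript length in the model, 27 genes were higher and 1 lower, with a median of 0.90. Among all 17000 genes that fit called 4297 higher and 3193 lower, with a median of 0.015. Srp19 lost its call, Sec61a2 gained one, and the lower gene was Sec11c in place of Srp54a and Sec62. The 4 SSR genes stood at 0.98 to 1.36 with these offsets, Dad1 at 1.54 and Srp14 at 1.33. Across the 34 genes, the Pearson r of the log2 fold change from this fit was -0.13 with transcript length. With coding length, which the offsets did not use, it was still -0.46.

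**Figure D4:**
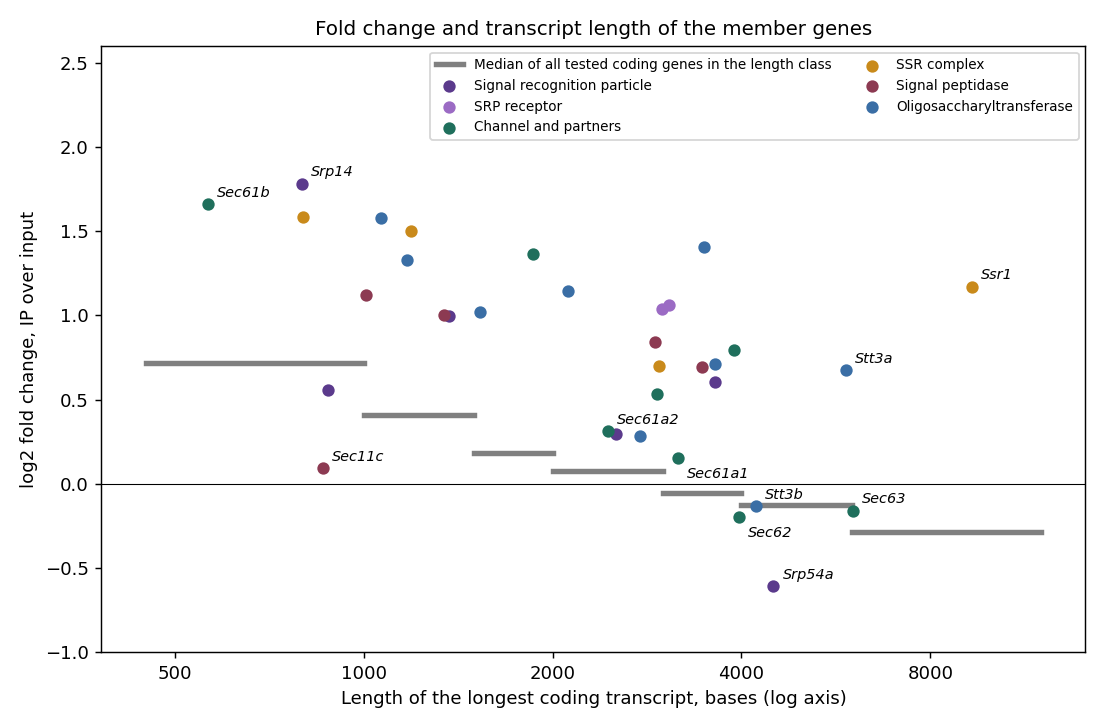
Log2 fold change of IP over input against the length of the longest coding transcript (log axis) for the 34 genes, coloured by role, with grey bars at the median of all tested coding genes in each length class. Most genes lie above the bar of their class, among them Ssr1 at 9333 bases and Stt3a at 5867 bases, while Sec11c, Srp19, Sec62, Stt3b and Srp54a do not.

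Levels can be compared between genes only per length. In CPM per kilobase of the longest coding transcript, Srp14 led with 359 in IP and 104 in input, followed by Srp9 with 123 in IP and 61.8 in input. Sec61b was ranked 3 in IP with 109 and 5 in input with 34.4. The lowest levels in IP were those of Srp54a (3.35 in IP and 5.09 in input), Stt3b (5.06 in IP and 5.54 in input), Sec61a1 (7.03 in IP and 6.32 in input) and Sec61a2 (7.83 in IP and 6.30 in input). Thus the large pore subunits were counted at a fraction of the level of Sec61b and Sec61g (39.5 in IP and 15.4 in input) in both kinds of library. Sec11c was ranked 14 in IP and 7 in input. The longest transcript need not be the one used, so these levels are approximate.

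Genes of neighbouring steps were read from 8 further lists of 67 genes, of which 40 were higher, against 24.5% of all genes tested, 2 were lower, against 20.9%, and 25 did not pass. Their median log2 fold change was 0.61, and the same shares of all genes stand behind each of the smaller lists. Of 4 further genes of OST subunits or associated proteins 3 were higher, among them Tmem258 (1.43 ± 0.13), a small subunit, and Mlec (1.33 ± 0.08), a lectin that binds glucosylated glycans. Of 10 genes of the ER membrane complex, which inserts some membrane proteins without Sec61, 7 were higher and 0 lower, led by Emc1 (1.07 ± 0.10) and Emc10 (1.07 ± 0.10). The tail-anchored protein pathway had 5 of 7 higher, including Wrb (0.77 ± 0.07) and Get4 (0.76 ± 0.11), and 1 lower, Ubl4a (-0.29 ± 0.08), which lost its call with library totals alone. Of 6 genes that join the channel for multipass membrane proteins 5 were higher, led by Wdr83os (1.26 ± 0.08) and Tmem147 (0.90 ± 0.12).

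The glycan that OST transfers is built on the lipid dolichol by a chain of enzymes. Of 23 genes of this pathway 10 were higher, against 24.5% of all genes, 0 were lower, against 20.9%, and 13 did not pass. Alg2, a mannosyltransferase, averaged 253 CPM in IP and 105 CPM in input (1.26 ± 0.07), and Alg10b, which adds the last glucose, averaged 28.1 CPM in IP and 12.6 CPM in input (1.16 ± 0.11). Of 8 genes that trim the transferred glycan or mark it for disposal 4 were higher, including Man1b1 (1.22 ± 0.11) and Ganab (0.68 ± 0.10), and Edem1 was lower (-1.54 ± 0.34). The GPI transamidase, which attaches a lipid anchor in the ER, had 4 of 5 genes higher, led by Pigt (1.01 ± 0.11) and Pigs (0.91 ± 0.14). Of 4 genes of the signal peptide peptidase family of intramembrane proteases 2 were higher and 2 did not pass. The higher genes were Hm13 (1.41 ± 0.09), whose protease clears leftover signal peptides from the membrane, and Sppl3 (1.21 ± 0.09), whose protease cleaves membrane-anchored glycosyltransferases of the Golgi.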

How the data were processed

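The authors deposited estimated counts per gene without normalization, made, per the submitters' processing notes, with Salmon 0.14.1 on genome build GRCm38.p6. No source used here states the annotation release or the strand setting. Groups and replicate numbers came from the titles, and the labels describe each library as made from 3 pooled mice without saying whether same-numbered IP and input libraries share a pool. Rounded counts entered edgeR 4.0.16 (R 4.3.3; filterByExpr with a minimum count of 10, TMM factors, quasi-likelihood test without covariate, Benjamini-Hochberg adjustment over 17000 genes, threshold 0.05); SE is |log2 fold change| over the root of F. Ratios of 2 genes used CPM plus 0.5 and a 2-sided exact permutation test over 70 arrangements. The model was tested on simulated data. Positions, lengths and GC content came from GENCODE M21 (GRCm38), and promoters from RefSeq. Copies of a gene were sought with blastn 2.17.0 (identity at least 95% over 200 bases). Offsets were splines of GC content and log2 length fitted per library. Without a stated strand setting, it is unknown whether reads within the bases that overlapping genes share were told apart.

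All 34 members, Magt1, Mff, Agrp, and from each neighbouring list the 2 genes with the smallest p in each direction were named. The members and lists were chosen with earlier results of these data known. Alternatives were RLE and upper quartile factors, library totals, other filters, DESeq2 1.42.0, limma-voom 3.58.1, omission of ribosomal and mitochondrial RNA, offsets, a replicate block and omission of each library. The SE, the SD and the permutation tests rest on the spread between libraries of a fraction, each made from pooled mice. They do not separate differences between pools from those of counting.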

Additional observations from a re-analysis of the deposited data

Results flagged for a closer look

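Among 92 sets of 4 libraries examined (each gene and each ratio in each fraction), 5 had 1 library far from the other 3, and chance gives about 5% of such sets. The Sec61g to Sec61a1 log2 ratio was lowest in IP replicate 1, at 1.00, where Sec61a1 was high. The Tusc3 to Magt1 log2 ratio was lowest in IP replicate 3, at 1.23, where Magt1 was high. Among inputs, the Sec11c to Sec11a log2 ratio was highest in replicate 3 at 1.19, the Tram1 to Tram1l1 log2 ratio was lowest in replicate 4 at 0.39, and Spcs1 was lowest in replicate 2 at 35.7 CPM. After TMM scaling, IP replicate 4 held the highest IP value of 17 of the 34 genes and IP replicate 3 the lowest of 14. The cause of these differences was not tested.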

How the results depend on the processing

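Of the 27 genes called higher, 24 kept their direction and call under each of 19 alternatives, the exceptions being Srp68, Srp19 and Rpn2. The number higher ran from 25 to 27 over the alternatives that used every library and from 26 to 27 without any 1 library. The number lower was 0 with library totals alone, 1 with no filter, without ribosomal and mitochondrial RNA and with offsets for GC and length (with or without the replicate block), and 0 to 2 without 1 library. The median log2 fold change of the 34 genes was 0.68 with upper quartile factors, where that of all genes was -0.15, and 0.74 to 0.92 without 1 library. Without ribosomal and mitochondrial RNA the 34 genes took 0.323% of IP and 0.217% of input counts. Without IP replicate 3 the same 27 genes were higher.

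Sec11c stood at -0.043 with upper quartile factors, -0.33 with offsets and -0.33 with offsets and the replicate block. Values that changed sign without 1 library were the log2 fold changes of Sec61a1 (-0.16 to 0.30) and Stt3b (-0.25 to 0.029) and the ratio differences of Sec61a1 to Sec61a2 (-0.51 to 0.051), Sec62 to Sec63 (-0.10 to 0.16) and Srprb to Srpr (-0.060 to 0.22). The cause was not tested.

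With the replicate block 3878 genes were higher and 3714 lower, and 27 and 2 of the members. Same-numbered IP and input libraries deviated together weakly (r 0.048 to 0.084, against -0.038 to -0.0016 for other pairs), and each of the 4 IP libraries correlated best with its own number, a hint of pairing that the labels do not state. The permutation tests of ratios treated the libraries as unpaired. An exact paired form, which 4 pairs could not bring past the threshold, was not run. Without a library, 3 against 4 cannot reach the threshold in the ratio tests, which were then read as values. Depth limits little here, since the lowest count of a member in a library was 469 estimated counts (Sec11a, input replicate 3).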
